A study of Mus musculus with 9 samples.

Results

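The genes described here encode the outer layer of the Wnt pathway. They are 19 Wnt ligands, 10 frizzled receptors, 5 further receptors and co-receptors (Lrp5, Lrp6, Ror1, Ror2 and Ryk), 2 secretion factors (Porcn and Wls) and 4 R-spondins. They were taken by mouse gene symbol, and all 40 were found among the 47069 gene rows of the count tables. RNA was sequenced from 3 distal metastases, 3 proximal metastases and 3 primary prostate tumours of C57BL/6 mice aged about 9 to 10 months. Every group carried the same genotype, which includes Ctnnb1pc(ex3)delta/+, an altered Ctnnb1 (beta-catenin) allele lacking exon 3. There was no wild-type or tumour-free group, and the labels name neither the promoter nor the Cre line behind the alleles. Proximal metastases came from the epididymal fat, while the distal site is given as diaphragm in the tissue label and as lung in the growth protocol. Tumour and metastases were matched within 3 mice without a key to which belong together, so the libraries, called distal 1 to 3, proximal 1 to 3 and primary 1 to 3, were compared unpaired.

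Wnt proteins are lipid-modified signals. Porcn attaches their lipid in the endoplasmic reticulum, Wls carries them to the cell surface, and they bind a frizzled together with Lrp5 or Lrp6 to stop the destruction of beta-catenin, or act through Ror and Ryk receptors on cell polarity and movement. R-spondins bind Lgr receptors and withdraw Rnf43 and Znrf3, the ligases that remove frizzleds from the membrane. Deletion of exon 3 of Ctnnb1 takes out the phosphorylation sites by which beta-catenin is marked for destruction. That step lies downstream of the frizzleds, Lrp5 and Lrp6.

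Promoter sequences from RefSeq (GRCm38.p6, windows of 300 bases from 250 before to 50 after a start site) were matched for 27 of the 40 genes, in 30 windows. The letters CTTTGAT, the core of the sequence bound by the TCF and LEF partners of beta-catenin, were searched on both strands. They occurred in 2 of these 30 windows (6.7%), in Wnt11 and Wnt5b, and in 1225 of all 32851 windows (3.7%). The median window of these genes held 30 CpG dinucleotides, against 7 in the median of all windows. The windows follow 5′ to 3′ along the gene's strand, first Fzd5, the receptor with the largest change relative to its error, and Wnt6, the ligand with the highest length-scaled level. Wnt11 comes last, with the motif, here on the opposite strand as ATCAAAG, in capitals.
Fzd5 (chr1:64737701-64738000, minus strand): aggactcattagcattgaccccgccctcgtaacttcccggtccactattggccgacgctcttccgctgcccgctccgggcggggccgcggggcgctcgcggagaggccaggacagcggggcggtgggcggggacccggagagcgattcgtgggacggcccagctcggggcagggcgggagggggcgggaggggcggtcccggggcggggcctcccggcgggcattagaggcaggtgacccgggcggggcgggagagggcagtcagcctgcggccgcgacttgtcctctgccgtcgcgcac
Wnt6 (chr1:74771642-74771941, plus strand): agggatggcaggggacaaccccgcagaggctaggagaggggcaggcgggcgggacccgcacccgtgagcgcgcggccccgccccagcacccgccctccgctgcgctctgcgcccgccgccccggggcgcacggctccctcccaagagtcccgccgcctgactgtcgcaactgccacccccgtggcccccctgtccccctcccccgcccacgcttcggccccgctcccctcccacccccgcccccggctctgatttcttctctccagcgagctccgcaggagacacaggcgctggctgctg
Wnt11 (chr7:98834862-98835161, plus strand): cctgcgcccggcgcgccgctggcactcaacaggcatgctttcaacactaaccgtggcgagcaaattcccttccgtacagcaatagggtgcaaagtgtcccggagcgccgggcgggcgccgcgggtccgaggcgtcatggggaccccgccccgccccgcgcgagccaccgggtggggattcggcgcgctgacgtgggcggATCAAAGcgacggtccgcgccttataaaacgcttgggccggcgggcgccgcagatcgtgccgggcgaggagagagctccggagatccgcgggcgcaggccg
The windows of Fzd5 and Wnt6 held 38 and 31 CpG dinucleotides and no match to those letters.

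Library depth lay between 28334730 and 40408723 counts, and gene positions are those of GENCODE M21 on GRCm38. Levels are given as CPM (counts scaled to a common library size) after scaling of library totals by trimmed means of M values, or per kilobase of exon (RPKM) where genes are compared with each other. At these depths, 1 CPM stood for 25.6 to 42.0 counts. The primary libraries did not resemble each other. Among the 34 Wnt genes with enough counts to test, primary 1 lay within the range of the 6 metastases for 28 (82.4%, against 70.8% of all tested genes). Primary 2 lay within it for 1 (2.94%, against 20.7%) and primary 3 for 9 (26.5%, against 29.5%). The median SD of log2 CPM over these genes was 0.265 in distal, 0.399 in proximal and 1.07 in primary libraries. Basal epithelial markers (Krt5, Krt14, Krt15, Krt17 and Trp63) summed to 11.6 to 25.6 CPM in distal, 6.46 to 10.8 CPM in proximal and 30.2, 572 and 2779 CPM in primary 1, 2 and 3. Seminal vesicle markers summed to at most 12.9 CPM in distal metastases and 17.7 CPM in proximal ones, against 9.72 CPM in primary 1, 26.9 CPM in primary 2 and 10566 CPM in primary 3. Pbsn, a secretory gene of prostate epithelium, had 1 count in the distal libraries together, at most 0.888 CPM in a proximal metastasis, and in the primary tumours 0.483 CPM (primary 1), 211 CPM (primary 2) and 11.8 CPM (primary 3). The summed level of adipocyte markers was 15.4 to 339.7 CPM in distal libraries, 108 to 448 CPM in proximal ones and 14.0 to 328 CPM in primary ones. Of the 5 lung markers, Sftpb, Sftpa1 and Scgb1a1 had no count in any distal library, Sftpc had 3, 0 and 2 counts in distal 1, 2 and 3, and Ager had 64, 66 and 41 counts there, within its range of 29 to 108 counts in the other libraries. In the same libraries skeletal muscle markers summed to 6.75, 669 and 899 CPM in distal 1, 2 and 3. Because these are bulk tissues, fewer cells of a type and less RNA per cell cannot be told apart in any value below.

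Among the ligands, 3 genes dominated on the length-scaled level: Wnt6, a ligand that signals mainly through beta-catenin, Wnt10a, its neighbour on chromosome 1 and a beta-catenin activating ligand of skin appendages and teeth, and Wnt5a, the best studied ligand of the Ror route. Together they made up 90.1%, 90.9% and 88.7% of the summed ligand RPKM in distal 1, 2 and 3, 91.6%, 88.0% and 89.7% in proximal 1, 2 and 3, and 89.8%, 60.7% and 66.6% in primary 1, 2 and 3. The sum itself was 386, 324 and 303 RPKM in distal 1, 2 and 3, 418, 305 and 331 RPKM in proximal 1, 2 and 3, and 325, 90.3 and 191 RPKM in primary 1, 2 and 3. Primary 1 thus carried both the sum and the composition of the metastases, and primary 2 and primary 3 carried less ligand RNA with a more even spread. Wnt6 ranked first among the ligands in each of the 9 libraries, with 35.4% of the ligand RPKM in primary 3 as its lowest share and 57.0% in proximal 2 as its highest.

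**Figure D1:**
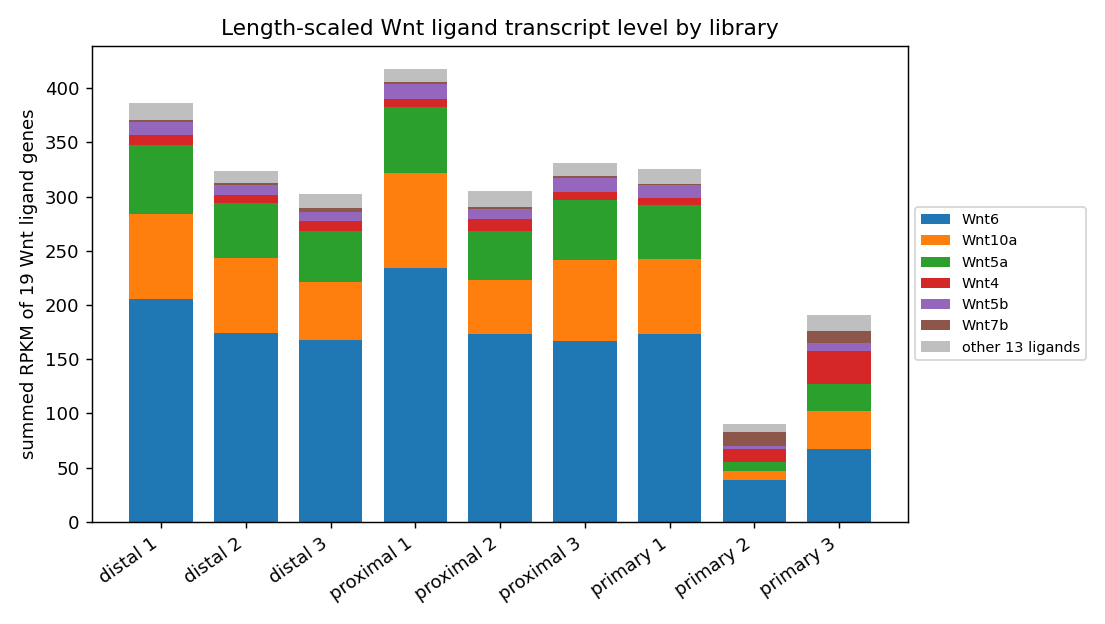
Stacked bars of the summed RPKM (vertical axis) of all 19 Wnt ligand genes in each library (horizontal axis), with the 6 ligands of highest level in colour and the other 13 in grey. The 6 metastases sum to between 303 and 418 RPKM, primary 1 to 325 RPKM, and primary 2 and primary 3 to 90.3 and 191 RPKM.

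Wnt6 (ENSMUSG00000033227, chromosome 1, 74771892 to 74785322 on the plus strand) had 451, 382 and 368 CPM in distal 1, 2 and 3, 514, 381 and 366 CPM in proximal 1, 2 and 3, and 380.0, 84.9 and 148 CPM in primary 1, 2 and 3. Per length, its group means were 183, 192 and 93.2 RPKM in distal, proximal and primary libraries. Primary 1 lay among the metastases, and primary 2 and primary 3 lay below all of them. The log2 fold change of both metastatic sites over primary was 1.005 (adjusted p = 0.2001, SE 0.432), positive without passing the test. It was 1.83 (adjusted p = 0.00309, SE 0.271) without primary 1 and 0.64 (adjusted p = 0.325, SE 0.3401) without primary 2. Wnt10a (ENSMUSG00000026167, chromosome 1, 74791516 to 74804179 on the plus strand) had 193, 170.3 and 131 CPM in distal 1, 2 and 3, 215, 122 and 182 CPM in proximal 1, 2 and 3, and 170.3, 20.4 and 84.98 CPM in primary 1, 2 and 3. Wnt5a (ENSMUSG00000021994, chromosome 14, 28504750 to 28527448 on the plus strand) had 499, 401 and 373 CPM in distal 1, 2 and 3, 478, 352 and 436 CPM in proximal 1, 2 and 3, and 389.6, 61.1 and 197 CPM in primary 1, 2 and 3. Both genes shared the pattern of Wnt6, with primary 1 inside the range of the metastases and primary 2 lowest of the 9. Their log2 fold changes, both sites over primary, were 0.88 for Wnt10a and 0.97 for Wnt5a, and neither passed the test. Without primary 1 they were 1.696 (adjusted p = 0.0472, SE 0.542) for Wnt10a and 1.73 (adjusted p = 0.02196, SE 0.439) for Wnt5a. Without primary 2 they were 0.41 (adjusted p = 0.461, SE 0.3203) for Wnt10a and 0.53 (adjusted p = 0.314, SE 0.271) for Wnt5a. An antisense transcript overlaps Wnt6 and another overlaps Wnt5a, with under 1% of the counts of either ligand.

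Wnt6 and Wnt10a lie in tandem, 6193 bases apart on the same strand. The ratio of Wnt6 to Wnt10a in CPM was 2.34, 2.24 and 2.80 in distal 1, 2 and 3, 2.39, 3.12 and 2.01 in proximal 1, 2 and 3, and 2.23, 4.16 and 1.74 in primary 1, 2 and 3. The ratio varied less than the level of either gene, and its groups overlapped. In 3 other neighbouring pairs, Wnt3a beside Wnt9a, Wnt9b beside Wnt3 and Wnt1 beside Wnt10b, at least 1 partner stayed below 1 CPM in the mean of every group.

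Wnt7b and Wnt4 ran the other way. Wnt7b (ENSMUSG00000022382, chromosome 15, 85535437 to 85582473 on the minus strand), an epithelial ligand needed for lung growth, had 10.7, 9.17 and 19.7 CPM in distal 1, 2 and 3, 8.12, 8.78 and 7.76 CPM in proximal 1, 2 and 3, and 6.58, 64.5 and 54.9 CPM in primary 1, 2 and 3. Primary 1 was the lowest of the 9 libraries and primary 2 and primary 3 the highest, so the groups overlapped. Its log2 fold change was -2.01 (adjusted p = 0.0928, SE 0.571) for both sites over primary, -1.67 (adjusted p = 0.277, SE 0.704) for distal over primary and -2.35 (adjusted p = 0.186, SE 0.721) for proximal over primary. Wnt4 (ENSMUSG00000036856, chromosome 4, 137277489 to 137299726 on the plus strand), a ligand of kidney and female reproductive tract development, had 37.6, 28.3 and 37.8 CPM in distal 1, 2 and 3, 29.01, 46.8 and 29.9 CPM in proximal 1, 2 and 3, and 27.1, 51.6 and 127 CPM in primary 1, 2 and 3. Here too primary 1 was lowest and primary 3 highest. The log2 fold change of both sites over primary was -0.97 (adjusted p = 0.2002, SE 0.419), and without primary 3 it was -0.17 (adjusted p = 0.726, SE 0.299). Neither Wnt7b nor Wnt4 passed the test with all libraries, and without primary 2 the value of Wnt7b was -1.57 (adjusted p = 0.249, SE 0.639). Both were called lower in the metastases without primary 1, at -2.500 (adjusted p = 0.000911, SE 0.258) for Wnt7b and -1.34 (adjusted p = 0.0197, SE 0.3295) for Wnt4. The basal marker sums were likewise highest in primary 2 and primary 3, and their part in these levels was not tested. A noncoding transcript on the other strand of Wnt7b held 274 counts in all libraries, against 5886 for Wnt7b.

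Ligands of middle level followed several patterns. Wnt9a, which takes part in joint formation, had 20.9, 14.5 and 22.6 CPM in distal 1, 2 and 3, 19.3, 18.6 and 15.7 CPM in proximal 1, 2 and 3, and 16.7, 1.91 and 6.32 CPM in primary 1, 2 and 3. Wnt5b, the close relative of Wnt5a, had 30.6, 26.5 and 21.7 CPM in distal 1, 2 and 3, 36.9, 23.8 and 34.8 CPM in proximal 1, 2 and 3, and 31.1, 7.77 and 20.4 CPM in primary 1, 2 and 3. Its locus overlaps Fbxl14 on the other strand, which had 18960 counts in all libraries, against 8716 for Wnt5b, so its level is uncertain. Wnt2, a ligand of lung and placental mesenchyme, had 12.8, 6.81 and 6.13 CPM in distal 1, 2 and 3, 10.8, 11.6 and 6.56 CPM in proximal 1, 2 and 3, and 10.04, 13.2 and 12.3 CPM in primary 1, 2 and 3. Wnt9a and Wnt5b were lowest in primary 2, whereas Wnt2 was highest there, and no site was separated from primary for any of the 3 genes. Wnt2b, a relative of Wnt2, had 2.45, 2.76 and 2.67 CPM in distal 1, 2 and 3, 1.65, 4.13 and 2.77 CPM in proximal 1, 2 and 3, and 3.25, 0.351 and 1.39 CPM in primary 1, 2 and 3. Wnt11, which acts on cell movement during development, had 5.201, 4.45 and 3.801 CPM in distal 1, 2 and 3, 2.01, 5.997 and 3.72 CPM in proximal 1, 2 and 3, and 4.16, 1.09 and 3.97 CPM in primary 1, 2 and 3. Wnt10b, a beta-catenin activating ligand that favours bone over fat formation, had 3.43, 2.41 and 1.300 CPM in distal 1, 2 and 3, 1.72, 1.48 and 4.46 CPM in proximal 1, 2 and 3, and 2.87, 0.703 and 5.13 CPM in primary 1, 2 and 3. For all 3 of these genes primary 2 was the lowest library, and none differed between groups by the test.

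The remaining ligands were of low level. Wnt7a, a ligand of limb patterning and of the female reproductive tract, had 1.65, 1.64 and 3.73 CPM in distal 1, 2 and 3, 1.04, 2.73 and 1.03 CPM in proximal 1, 2 and 3, and 1.799, 0.234 and 4.75 CPM in primary 1, 2 and 3. Wnt9b, which induces kidney tubules, had 0.925, 1.74 and 0.834 CPM in distal 1, 2 and 3, 1.28, 0.5104 and 4.46 CPM in proximal 1, 2 and 3, and 2.12, 0.03905 and 8.15 CPM in primary 1, 2 and 3. Wnt16, a ligand of bone, had 0.4501, 0.453 and 0.233 CPM in distal 1, 2 and 3, 0.418, 0.204 and 1.35 CPM in proximal 1, 2 and 3, and 1.02, 0.195 and 3.84 CPM in primary 1, 2 and 3. All 3 were highest in primary 3, the library with the seminal vesicle markers, whose part in these levels was not tested. Wnt3, needed for gastrulation, stayed between 0.117 and 0.441 CPM. Wnt1 had 2 counts in all 9 libraries together, Wnt3a had 4, Wnt8b had 12 and Wnt8a had 0. A count of 0 over 9 libraries allows a level of up to 0.00933 CPM for Wnt8a, for counting error only.

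**Figure D2:**
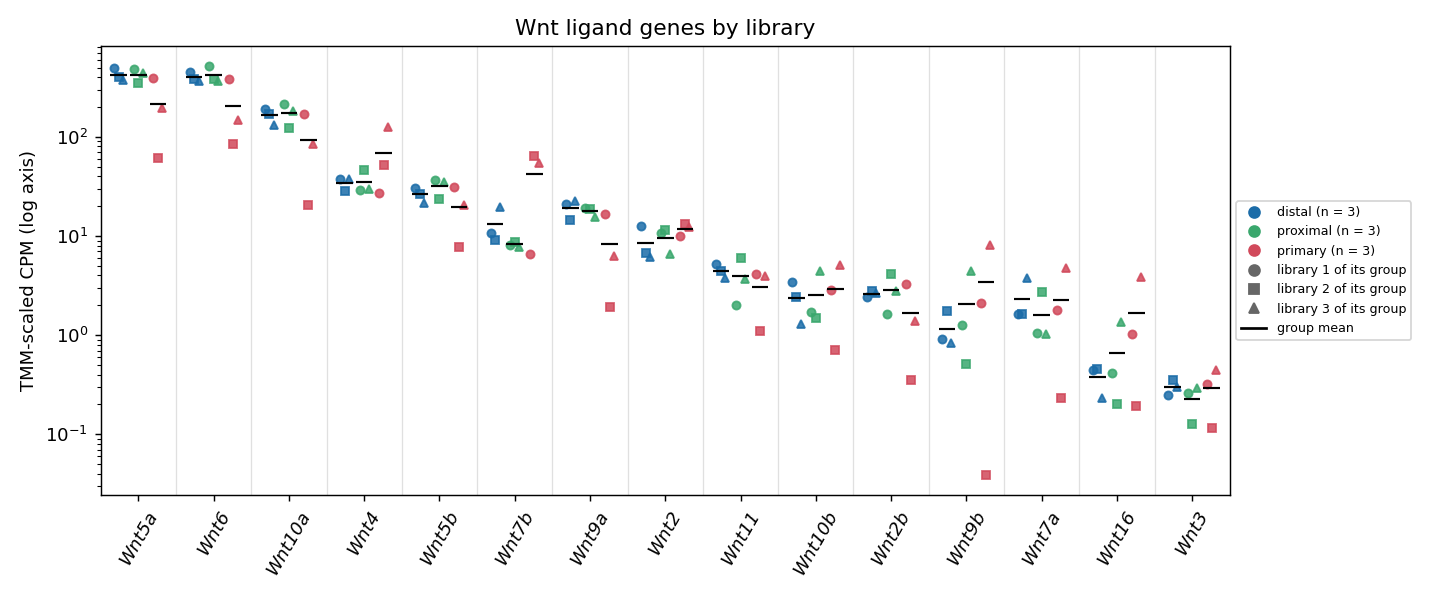
Each point is 1 library's level of a Wnt ligand gene in CPM (vertical log axis), coloured by group with distal left of proximal and primary (n = 3 each), and the black lines are group means. The metastases lie close together for Wnt5a, Wnt6 and Wnt10a, while primary 2 and primary 3 lie lower for these genes and higher for Wnt7b.

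Among the frizzleds the metastases held less of several minor receptors, and the abundant ones were not called in either direction. Over both metastatic sites against primary, Fzd5, Fzd8 and Fzd3 fell, and they were the only 3 of the 34 tested Wnt genes to be called (8.82%, against 3.71% of all 18204 genes tested). A call is an adjusted p below 0.05 in edgeR's quasi-likelihood test. All 3 calls were downward, the direction of 3.68% of all genes, and no Wnt gene was called higher, against 0.033% of all genes. In 4 of the 34 genes, Fzd4, Fzd5, Fzd8 and Ror2, all 6 metastases lay below all 3 primary tumours (11.8%, against 5.99% of all genes), and in 0 did they lie above, against 4.22%. At an unadjusted p below 0.05 the Wnt genes stood at 8 of 34 (23.5%, 1 higher and 7 lower), close to the 24.6% of all genes (6.04% higher and 18.6% lower), so that count says nothing particular about them.

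Fzd5 (ENSMUSG00000045005, chromosome 1, 64730558 to 64737751 on the minus strand), a receptor needed in the eye, the yolk sac and Paneth cells of the gut, had 2.18, 2.79 and 3.63 CPM in distal 1, 2 and 3, 2.298, 3.98 and 2.62 CPM in proximal 1, 2 and 3, and 10.9, 16.4 and 13.4 CPM in primary 1, 2 and 3. Group means were 2.87 ± 0.733 CPM in distal, 2.97 ± 0.894 CPM in proximal and 13.6 ± 2.75 CPM in the primary tumours (SD, n = 3 each). Every metastasis, with 3.98 CPM at most, lay below every primary tumour, with 10.9 CPM at least. Its log2 fold change was -2.22 (adjusted p = 0.0112, SE 0.267) over both sites, which makes the level 4.65-fold lower than in primary tumours. The distal value was -2.24 (adjusted p = 0.0702, SE 0.335) and the proximal value -2.19 (adjusted p = 0.0714, SE 0.334), neither of which passed alone. With each library left out in turn, the change over both sites ranged from -2.34 to -2.06, and it stayed called in 5 of 9 such fits. The call was lost without distal 1, distal 2, proximal 1 or proximal 3, with an adjusted p of at most 0.0707. Per length Fzd5 was a minor receptor, at 0.414, 0.429 and 1.96 RPKM in distal, proximal and primary libraries, or 0.449% ± 0.143, 0.427% ± 0.128 and 3.10% ± 2.199 (SD, n = 3 each) of the summed frizzled RPKM.

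Fzd8 (ENSMUSG00000036904, chromosome 18, 9212163 to 9218136 on the plus strand), the closest relative of Fzd5, had 1.25, 2.52 and 2.57 CPM in distal 1, 2 and 3, 1.31, 2.02 and 1.37 CPM in proximal 1, 2 and 3, and 3.03, 8.71 and 9.099 CPM in primary 1, 2 and 3. Its log2 fold change over both sites was -1.93 (adjusted p = 0.0435, SE 0.403), a level 3.81-fold lower than in primary tumours. The groups did not overlap, though primary 1 stood only just above the highest metastasis, and the change was -1.68 (adjusted p = 0.179, SE 0.452) without primary 3. Fzd3 (ENSMUSG00000007989, chromosome 14, 65192449 to 65262463 on the minus strand), which guides growing axons, had 0.775, 1.02 and 1.37 CPM in distal 1, 2 and 3, 1.23, 0.485 and 0.979 CPM in proximal 1, 2 and 3, and 0.993, 9.92 and 14.2 CPM in primary 1, 2 and 3. Its log2 fold change was -3.100 (adjusted p = 0.0483, SE 0.671), 8.57-fold lower than in primary tumours and the widest of the 3. That value came from primary 2 and primary 3, since primary 1 lay within the range of the metastases, and without primary 3 it was -2.47 (adjusted p = 0.199, SE 0.714). The calls of Fzd8 and Fzd3 held in 1 of the 9 fits that left out a library, the one without primary 1. There the log2 fold changes were -2.27 (adjusted p = 0.00241, SE 0.317) for Fzd8 and -3.61 (adjusted p = 0.000787, SE 0.361) for Fzd3. Fzd4 (ENSMUSG00000049791, chromosome 7, 89404355 to 89413134 on the plus strand), the receptor for norrin in retinal vessels, had 4.68, 7.57 and 8.67 CPM in distal 1, 2 and 3, 6.87, 8.01 and 5.09 CPM in proximal 1, 2 and 3, and 9.26, 15.9 and 11.7 CPM in primary 1, 2 and 3. Its metastases lay below its primary tumours without passing the test, with a log2 fold change of -0.85 (adjusted p = 0.126, SE 0.277).

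These lower receptor levels stood beside other differences between the tissues. Basal epithelial markers had all metastases below all primary tumours for 3 of 5 genes (against 5.99% of all genes tested), with the summed levels given above and no marker at 0 throughout a group. General epithelial markers did so for 3 of 5 genes, and summed to 657 to 752 CPM in distal, 518 to 831 CPM in proximal and 999, 8212 and 2622 CPM in primary 1, 2 and 3. Macrophage markers did so for 4 of 6 genes, and summed to 173 to 278 CPM in distal, 140 to 246 CPM in proximal and 278, 629 and 450 CPM in primary 1, 2 and 3. For Fzd5 and Fzd8, primary 1 was above every metastasis, as was its basal sum, at 30.2 CPM against at most 25.6 CPM in a metastasis. Within the basal list, Krt14 and Krt17 of primary 1 lay within the range of the metastases. The general epithelial, macrophage, endothelial and Schwann and neural sums of primary 1 also lay above those of every metastasis. The endothelial sum was 90.4 to 169 CPM in distal, 103 to 145 CPM in proximal and 175 to 237 CPM in primary tumours, so that all metastases lay below all primary tumours, as they did for 1 of its 6 genes. The Schwann and neural sum was 5.597 to 11.04 CPM in distal metastases, 4.96 to 9.37 CPM in proximal ones and 15.6 to 117 CPM in primary tumours, again without overlap. The sum of the 5 hepatocyte markers went the other way, at 5843 to 6898 CPM in distal, 5236 to 7574 CPM in proximal and 4040, 121 and 652 CPM in primary 1, 2 and 3. That sum was almost wholly Alb, with 5831 to 6827 CPM in distal and 5234 to 7570.5 CPM in proximal metastases. In primary 1, 2 and 3 Alb had 4035, 114 and 650 CPM. All metastases lay above all primary tumours for 1 of the 5 genes, Alb (against 4.22% of all genes). Apoa1, Apoa2, Ttr and Serpina1a overlapped between metastases and primary tumours. Fibroblast markers (0 of 7) and smooth muscle markers (0 of 6) were separated in neither direction. The part of these cell types in the receptor levels was not tested.

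**Figure D3:**
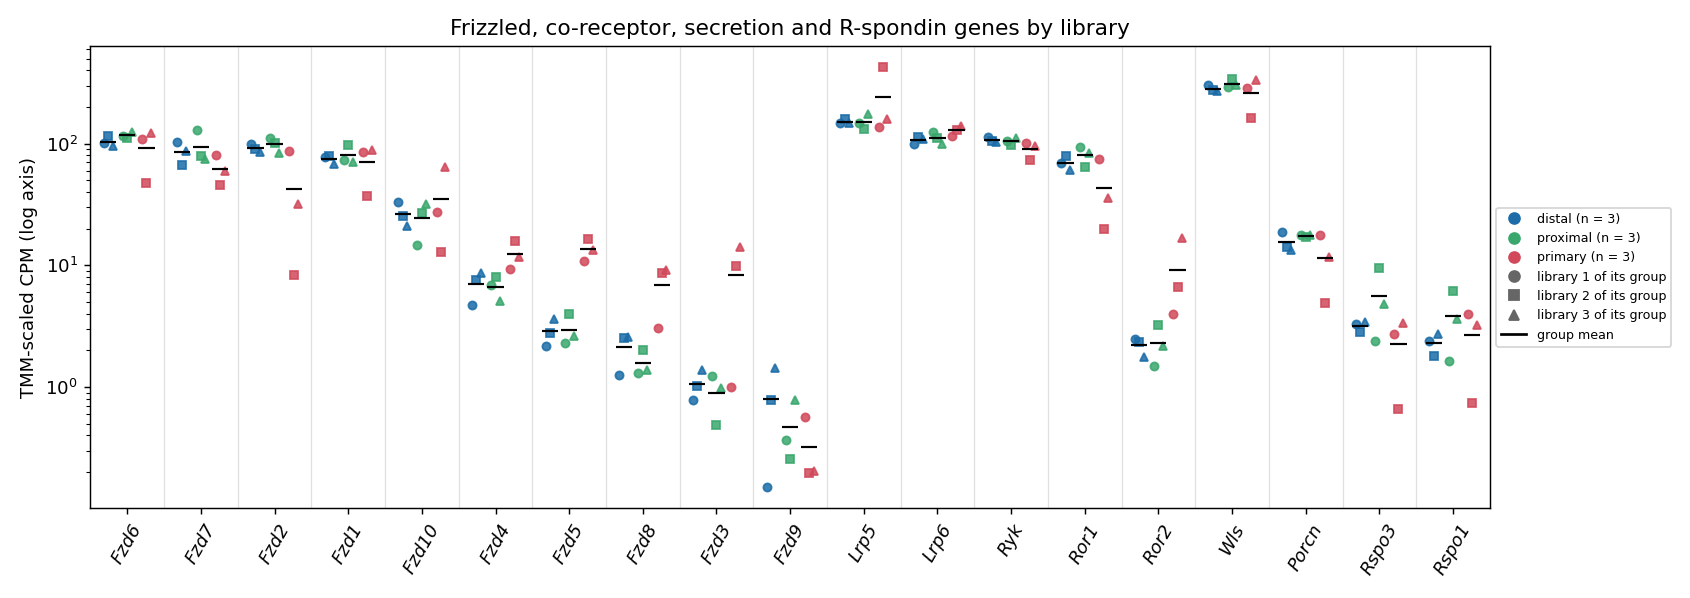
Each point is 1 library's level in CPM (vertical log axis) of a frizzled, co-receptor, secretion factor or R-spondin gene, coloured by group with distal left of proximal and primary (n = 3 each), and the black lines are group means. For Fzd4, Fzd5, Fzd8 and Ror2 the primary points lie above all metastases, and for Fzd2 primary 2 and primary 3 lie below them.

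The abundant frizzleds were Fzd6, Fzd2, Fzd1 and Fzd7 on the length-scaled level. Fzd2, which can bind Wnt5a, had 99.03, 89.6 and 85.6 CPM in distal 1, 2 and 3, 112, 101 and 83.8 CPM in proximal 1, 2 and 3, and 87.6, 8.36 and 32.1 CPM in primary 1, 2 and 3. Its share of the frizzled RPKM was 26.6% ± 0.150 in distal, 26.7% ± 2.14 in proximal and 13.1% ± 10.2 in primary libraries (SD, n = 3 each), and primary 1 again sat with the metastases. Fzd2 did not pass the test, with a log2 fold change of 1.16 over both sites, and reached 2.25 (adjusted p = 0.0127, SE 0.489) without primary 1 but 0.67 (adjusted p = 0.313, SE 0.342) without primary 2. Fzd6, a planar polarity receptor of hair and inner ear, had 102, 115 and 95.4 CPM in distal 1, 2 and 3, 115, 112 and 124 CPM in proximal 1, 2 and 3, and 109, 47.6 and 122 CPM in primary 1, 2 and 3. Fzd1, a receptor that can work through beta-catenin, had 77.5, 78.9 and 68.6 CPM in distal 1, 2 and 3, 73.7, 96.6 and 70.4 CPM in proximal 1, 2 and 3, and 84.7, 37.2 and 89.02 CPM in primary 1, 2 and 3. Fzd7, a receptor of stem cells in several epithelia, had 103, 66.98 and 86.4 CPM in distal 1, 2 and 3, 129, 79.8 and 75.1 CPM in proximal 1, 2 and 3, and 80.5, 45.9 and 59.1 CPM in primary 1, 2 and 3. Primary 2 was the lowest library for all 3, and primary 1 and primary 3 were not set apart from the metastases for Fzd6 and Fzd1. Fzd10, a receptor of restricted expression, had 32.98, 25.4 and 21.1 CPM in distal 1, 2 and 3, 14.6, 27.1 and 31.97 CPM in proximal 1, 2 and 3, and 27.5, 12.8 and 64.3 CPM in primary 1, 2 and 3, with primary 3 highest and primary 2 lowest. Fzd9 ranged from 0.150 to 1.43 CPM over the 9 libraries, and was the only tested Wnt gene that met the count minimum in 3 libraries of 1 group alone. The summed frizzled level was 101, 92.2 and 88.0 RPKM in distal 1, 2 and 3, 107, 102 and 93.7 RPKM in proximal 1, 2 and 3, and 96.7, 42.1 and 94.6 RPKM in primary 1, 2 and 3, so only primary 2 stood apart.

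Among the co-receptors the widest difference was that of Ror2. Ror2 (ENSMUSG00000021464, chromosome 13, 53109312 to 53286124 on the minus strand), a tyrosine kinase-like receptor for Wnt5a, had 2.48, 2.36 and 1.77 CPM in distal 1, 2 and 3, 1.49, 3.22 and 2.15 CPM in proximal 1, 2 and 3, and 3.95, 6.64 and 16.7 CPM in primary 1, 2 and 3. All 6 metastases lay below all 3 primary tumours, and primary 3 was highest. The log2 fold change over both sites was -2.02 (adjusted p = 0.0508, SE 0.449), just short of the threshold, and it was -1.23 (adjusted p = 0.199, SE 0.358) without primary 3. Ror1, its relative, had 69.1, 78.9 and 60.6 CPM in distal 1, 2 and 3, 94.4, 63.7 and 83.1 CPM in proximal 1, 2 and 3, and 74.7, 20.03 and 35.8 CPM in primary 1, 2 and 3. Ror1 was lower in primary 2 and primary 3 than in any metastasis, opposite to Ror2, with a log2 fold change of 0.78 that did not pass the test. Without primary 1 it was 1.44 (adjusted p = 0.00779, SE 0.274), and without primary 2 it was 0.44 (adjusted p = 0.388, SE 0.286). Per length, Ror1 stood above Ror2 in each library, with means of 12.1 against 0.519 RPKM in distal, 13.96 against 0.539 RPKM in proximal and 7.55 against 2.14 RPKM in primary libraries.

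Lrp5, the co-receptor known for its role in bone mass, had 149, 159 and 147 CPM in distal 1, 2 and 3, 148, 131 and 174 CPM in proximal 1, 2 and 3, and 137, 427 and 161 CPM in primary 1, 2 and 3. Only primary 2 stood out, above the other 8 libraries, which lay between 131 and 174 CPM. Lrp6, the broadly used co-receptor, had 99.95, 113 and 109.8 CPM in distal 1, 2 and 3, 124, 112 and 100.1 CPM in proximal 1, 2 and 3, and 116, 128 and 141 CPM in primary 1, 2 and 3. Ryk, a receptor with an inactive kinase domain, had 113, 104 and 104 CPM in distal 1, 2 and 3, 105, 96.8 and 111 CPM in proximal 1, 2 and 3, and 101, 73.2 and 95.4 CPM in primary 1, 2 and 3. Distal libraries lay below all primary tumours for Lrp6 and above them for Ryk, by log2 fold changes of -0.25 (adjusted p = 0.344, SE 0.137) for Lrp6 and 0.25 (adjusted p = 0.369, SE 0.149) for Ryk that did not pass the test. Wls, the Wnt carrier, had 303, 276 and 271 CPM in distal 1, 2 and 3, 291, 337 and 306 CPM in proximal 1, 2 and 3, and 286, 162 and 334 CPM in primary 1, 2 and 3. Porcn, the Wnt acyltransferase, had 18.9, 14.1 and 13.3 CPM in distal 1, 2 and 3, 17.6, 16.9 and 17.9 CPM in proximal 1, 2 and 3, and 17.6, 4.92 and 11.6 CPM in primary 1, 2 and 3. Both were lowest in primary 2, and neither set a group apart.

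The R-spondins were scarce. Rspo1, a signal of ovary development and of the gut stem cell niche, had 2.38, 1.79 and 2.701 CPM in distal 1, 2 and 3, 1.65, 6.18 and 3.62 CPM in proximal 1, 2 and 3, and 4.001, 0.742 and 3.26 CPM in primary 1, 2 and 3. Rspo3, which is made by mesenchyme around stem cells of several organs, had 3.301, 2.83 and 3.43 CPM in distal 1, 2 and 3, 2.402, 9.47 and 4.798 CPM in proximal 1, 2 and 3, and 2.71, 0.664 and 3.33 CPM in primary 1, 2 and 3. Proximal 2 held the highest level of both and primary 2 the lowest, and no group was set apart. Rspo2 had 8 counts and Rspo4 27 counts in all libraries, too few to test. The ligases that R-spondins withdraw were measured in every library. Rnf43 had 409, 494 and 411 CPM in distal 1, 2 and 3, 499, 423 and 447 CPM in proximal 1, 2 and 3, and 452, 256 and 252 CPM in primary 1, 2 and 3. Znrf3 had 367, 429 and 348 CPM in distal 1, 2 and 3, 480.2, 394 and 394 CPM in proximal 1, 2 and 3, and 387, 216 and 245 CPM in primary 1, 2 and 3. For both ligases primary 1 lay among the metastases, and primary 2 and primary 3 lay below them. Lgr5, an R-spondin receptor of epithelial stem cells, had 183, 179 and 146 CPM in distal 1, 2 and 3, 217, 167 and 149 CPM in proximal 1, 2 and 3, and 161, 71.5 and 162 CPM in primary 1, 2 and 3. Of the 5 genes of this group (Lgr4, Lgr5, Lgr6, Rnf43 and Znrf3), 4 had a positive and 1 a negative log2 fold change over both sites, with a median of 0.40, and 0 were called.

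The comparisons of single sites gave no called Wnt gene with edgeR. DESeq2 called 4 for distal over primary (Fzd3, Fzd5, Fzd8 and Ror2; 11.8%, against 7.93% of all genes) and 5 for proximal over primary (these and Wnt7b; 14.7%, against 8.16%), all lower. Limma-voom called 0 in either comparison. With sample quality weights it called 8 for distal (3 higher and 5 lower; 23.5%, against 17.2%) and 10 for proximal (4 higher and 6 lower; 29.4%, against 19.8%). Primary 3 had a weight of 1.06 there, against 0.175 for primary 1 and 0.0843 for primary 2. The primary side of that fit thus rested mostly on primary 3. For distal over primary, 0 of 34 were called (against 0.0879% of all genes) and 6 had an unadjusted p below 0.05 (17.6%, against 17.4%). All of them were lower, as were 13.5% of all genes, against 3.89% higher: Fzd5, Ror2, Fzd3, Fzd8, Fzd4 and Wnt7b. The distal group lay below primary in 5 genes (14.7%, against 10.4%) and above it in 1 (2.94%, against 8.4%). For proximal over primary, 0 of 34 were called (against 0.0494%) and the 6 with an unadjusted p below 0.05 (17.6%, against 18.2%) were Fzd5, Fzd8, Fzd3, Ror2, Wnt7b and Fzd4, all lower (14.3% of all genes lower and 3.86% higher). The proximal group lay below primary in 4 genes (11.8%, against 10.7%) and above it in 0 (against 8.68%). The shares at an unadjusted p below 0.05 are near the background. Both comparisons use the same 3 primary libraries, so the values are set side by side. The distal log2 fold changes were -1.71 (adjusted p = 0.175, SE 0.497) for Fzd8, -2.98 (adjusted p = 0.171, SE 0.859) for Fzd3, -2.04 (adjusted p = 0.161, SE 0.5604) for Ror2 and -0.82 (adjusted p = 0.266, SE 0.331) for Fzd4. The proximal ones were -2.15 (adjusted p = 0.1402, SE 0.505) for Fzd8, -3.22 (adjusted p = 0.158, SE 0.867) for Fzd3, -1.99 (adjusted p = 0.168, SE 0.559) for Ror2 and -0.89 (adjusted p = 0.237, SE 0.331) for Fzd4. The median log2 fold change of the 34 genes was 0.07 for distal over primary (-0.03 over all genes), 0.20 for proximal over primary (-0.05) and 0.14 for both sites over primary (-0.04). By role, 7 ligands had positive and 8 negative log2 fold changes over both sites (median -0.17), against 5 and 5 frizzleds (-0.15), 2 and 3 co-receptors (-0.23), 2 and 0 secretion factors (0.36) and 2 and 0 R-spondins (0.53).

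**Figure D4:**
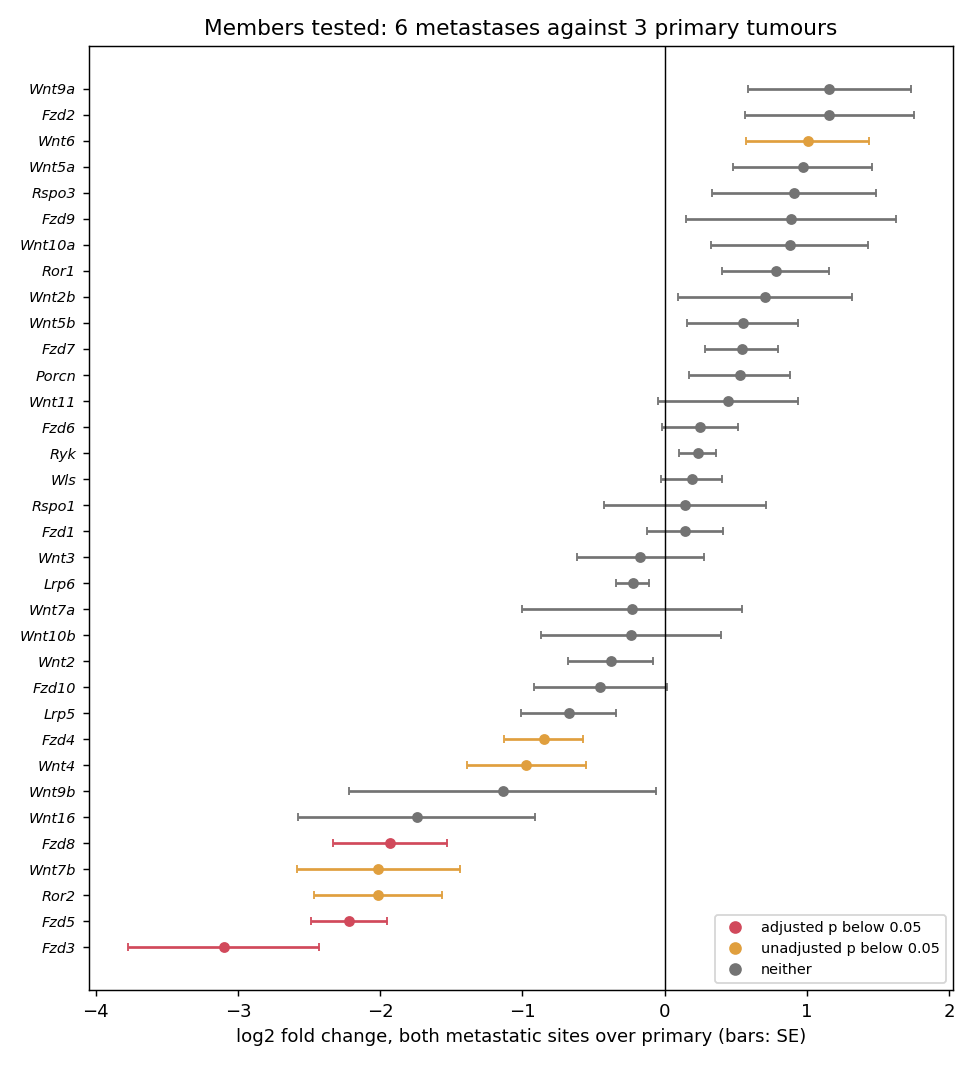
Log2 fold change of both metastatic sites over primary (horizontal axis, bars: SE) for the 34 tested Wnt genes, 1 row per gene, coloured by test result. Fzd5, Fzd8 and Fzd3 are the called genes, at -2.22, -1.93 and -3.100, and Wnt6, at 1.005, is the only gene above 0 with an unadjusted p below 0.05.

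No Wnt gene passed the test between the metastatic sites. For distal over proximal, 0 of 34 Wnt genes were called (against 0.0% of all genes) and 0 had an unadjusted p below 0.05 (against 2.06%) with edgeR, and DESeq2 called 0. Wnt7b alone had no overlap between the sites (1 of 34, 2.94%, against 4.03% of all genes with distal above proximal and 3.6% with distal below), with 13.2 ± 5.68 CPM in distal and 8.22 ± 0.516 CPM in proximal metastases (SD, n = 3 each). Its log2 fold change was 0.68 (adjusted p = 0.999985, SE 0.691). A p that misses the threshold does not show that the sites are alike, and the SE of that change was as large as the change.

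Further Wnt pathway genes were counted by group for both sites over primary. Of the 13 tested secreted antagonists, 3 fell and 0 rose by the edgeR test (against 3.68% of all genes lower and 0.033% higher), 6 had positive and 7 negative log2 fold changes, and the median was -1.51. All metastases lay above all primary tumours for 4 of these antagonists (against 4.22% of all genes) and below them for 1 (against 5.99%). DESeq2 called 2 higher and 5 lower, limma-voom 0, and limma-voom with sample quality weights 5 higher and 5 lower. The shares of all genes called with DESeq2 (both directions together) and with sample quality weights are given further below. Leaving out primary 1 in edgeR gave 5 higher and 5 lower (against 16.2% and 18.6% of all genes). Without primary 2 edgeR gave 0 higher and 3 lower, and without primary 3 it gave 0. Calls over all genes with a library left out are given below only as a range. These counts are therefore not read as particular to the antagonists. Dkk2, which blocks Lrp5 and Lrp6, had 56.3, 47.97 and 63.5 CPM in distal 1, 2 and 3, 40.6, 54.00 and 54.8 CPM in proximal 1, 2 and 3, and 52.9, 1329 and 598 CPM in primary 1, 2 and 3, and its log2 fold change was -3.64 (adjusted p = 0.0351, SE 0.704). Primary 1 stood with the metastases, and primary 2 and primary 3 stood far above all of them. Sfrp4 and Sfrp5, frizzled-like decoys that bind Wnt proteins, were the others. Sfrp4 had 0.2501, 0.405 and 1.900 CPM in distal 1, 2 and 3, 0.836, 1.66 and 0.588 CPM in proximal 1, 2 and 3, and 18.4, 1.44 and 46.99 CPM in primary 1, 2 and 3, with a log2 fold change of -4.58 (adjusted p = 0.0449, SE 0.968). Sfrp5 had 0.6002, 1.71 and 0.7002 CPM in distal 1, 2 and 3, 0.392, 0.408 and 0.612 CPM in proximal 1, 2 and 3, and 1.18, 13.2 and 9.54 CPM in primary 1, 2 and 3, with a log2 fold change of -3.52 (adjusted p = 0.0327, SE 0.662). For each of these genes 1 primary tumour lay within the range of the metastases, primary 2 for Sfrp4 and primary 1 for the others. For Dkk2 and Sfrp5 the high libraries, primary 2 and primary 3, were also those with the highest basal marker sums, whose part was not tested. The calls of Dkk2 and Sfrp5 held in 1 of the 9 fits that left out a library, the one without primary 1, and that of Sfrp4 also held without primary 2. Without primary 2 the log2 fold change of Dkk2 was -2.63 (adjusted p = 0.1103) and that of Sfrp5 -2.96 (adjusted p = 0.0968), and without primary 3 that of Sfrp4 was -3.42 (adjusted p = 0.193).

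The antagonists with the most counts had positive log2 fold changes that edgeR did not call with all 9 libraries. Wif1, which sequesters Wnt proteins, had 5129.8, 4930.0 and 4709.5 CPM in distal 1, 2 and 3, 5433, 5332 and 5295 CPM in proximal 1, 2 and 3, and 4368, 704 and 1674 CPM in primary 1, 2 and 3. Apcdd1, a membrane inhibitor of Wnt receptors, had 4048, 4000.1 and 3763 CPM in distal 1, 2 and 3, 4442, 4305 and 3757 CPM in proximal 1, 2 and 3, and 3200.3, 467 and 1198 CPM in primary 1, 2 and 3. For both, every primary tumour lay below every metastasis, and the log2 fold changes were 1.19 (adjusted p = 0.197, SE 0.506) for Wif1 and 1.32 (adjusted p = 0.182, SE 0.5305) for Apcdd1. Without primary 1 they were 2.13 (adjusted p = 0.00439) for Wif1 and 2.300 (adjusted p = 0.00453) for Apcdd1, and without primary 2 they were 0.77 (adjusted p = 0.268) for Wif1 and 0.885 (adjusted p = 0.236) for Apcdd1. With all libraries, DESeq2 gave an adjusted p of 0.0599 for Wif1 and 0.0446 for Apcdd1, and limma-voom with sample quality weights gave 0.00807 for Wif1 and 0.00767 for Apcdd1. Of the 12 feedback and nuclear genes, 8 had positive and 4 negative log2 fold changes, with a median of 0.36 and 0 called. Axin2, a target gene that feeds back on the pathway, had 818, 862 and 761 CPM in distal 1, 2 and 3, 913, 882 and 830.3 CPM in proximal 1, 2 and 3, and 761, 360.3 and 542 CPM in primary 1, 2 and 3. Nkd1, another such gene, had 1789, 1866 and 1624 CPM in distal 1, 2 and 3, 1872, 1880.4 and 1848 CPM in proximal 1, 2 and 3, and 1766, 1674 and 812 CPM in primary 1, 2 and 3. Of the 10 cytoplasmic core genes, 7 had positive and 3 negative log2 fold changes, with a median of 0.10 and 0 called. Ctnnb1 itself had 4213, 4457 and 3553 CPM in distal 1, 2 and 3, 4398, 3626 and 4961 CPM in proximal 1, 2 and 3, and 4399, 937 and 1771 CPM in primary 1, 2 and 3. The 10 planar polarity genes were divided into 5 positive and 5 negative, with a median of 0.27 and 0 called. Ptk7, a Wnt co-receptor of this route, had 314, 289 and 301 CPM in distal 1, 2 and 3, 295, 323 and 292 CPM in proximal 1, 2 and 3, and 259.9, 22.1 and 120.1 CPM in primary 1, 2 and 3. In Axin2, Ctnnb1 and Ptk7, as in Wnt6, primary 2 was the lowest library. In edgeR, an unadjusted p below 0.05 was reached by 2 higher and 1 lower of the feedback and nuclear genes, 1 higher and 1 lower of the cytoplasmic core, 1 higher and 2 lower of the planar polarity genes, and 1 higher and 1 lower of the R-spondin receptors and ligases. In these lists DESeq2 called Axin2 and Sp5 higher among the feedback and nuclear genes and Celsr2 lower among the planar polarity genes, and none of the cytoplasmic core or of the R-spondin receptors and ligases. Limma-voom called 0 in each of these lists. With sample quality weights it called 6 feedback and nuclear genes higher, 2 core genes higher and 1 lower, 3 planar polarity genes higher and 1 lower, and 2 R-spondin receptors and ligases higher and 1 lower (8.43% of all genes were higher and 12.8% lower). Without primary 1, edgeR called 5 higher and 1 lower, 3 higher and 1 lower, 4 higher and 3 lower, and 3 higher and 1 lower in the same order of lists (16.2% of all genes were higher and 18.6% lower), and without primary 2 or primary 3 it called 0 in each.

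The receptor results depended on the libraries and the method. Fzd5 was called over both sites in all 9 alternatives that kept every library, with an adjusted p of at most 0.0150. Fzd8 was called in 7 of these 9, Fzd3 in 6 and Ror2 in 5. Leaving out primary 1 raised the count to 13 of 34 (38.2%, against 34.8% of all genes), a share close to the background, as were the 6 higher (17.6%, against 16.2%) and 7 lower ones (20.6%, against 18.6%). These were Fzd2, Ror1, Wnt5a, Wnt6, Wnt9a and Wnt10a with higher and Fzd3, Fzd4, Fzd5, Fzd8, Ror2, Wnt4 and Wnt7b with lower levels in the metastases. Leaving out any other single library gave 0 or 1 called Wnt genes, and the 1 was Fzd5 each time.

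**Figure D5:**
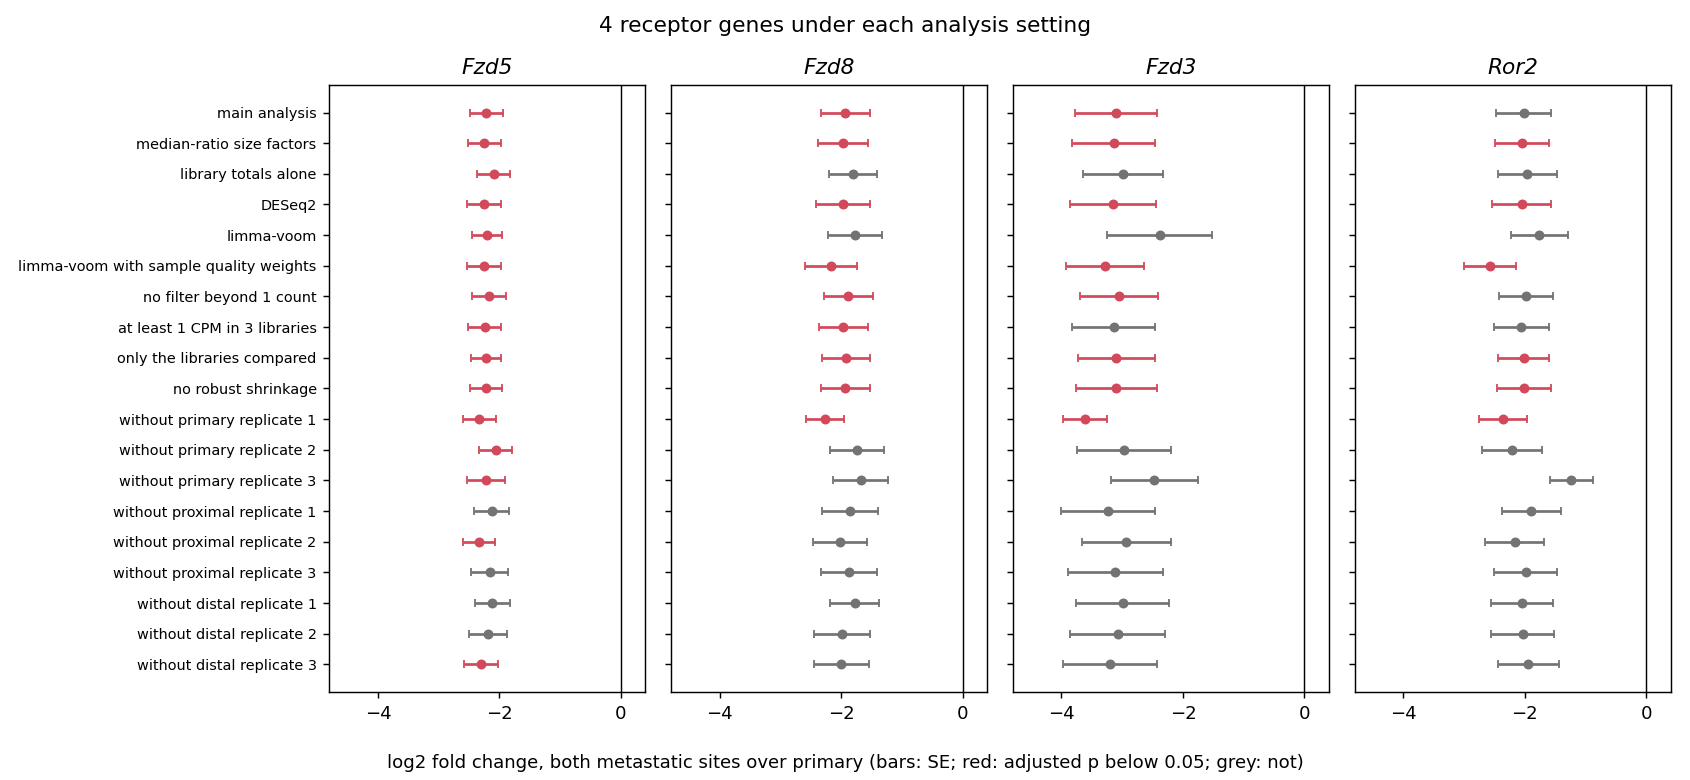
Log2 fold change of both metastatic sites over primary (horizontal axis, bars: SE) of 4 receptor genes under each analysis setting (1 row each), in red where the adjusted p is below 0.05. Every value is below 0; Fzd5 moves least, between -2.34 and -2.06, and Ror2 comes closest to 0, at -1.23 without primary 3.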

How the data were processed

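Bulk RNA sequencing gave 9 libraries, 3 per group, grouped by tissue label. One further element of the genotype, shared by all groups, is not reported here. The deposited files hold whole-number read counts per Ensembl gene (47069 rows), made by the authors on GRCm38.p3. The tools named are HTSeq 0.6.0, TopHat2 2.1.0, DESeq2 1.14.1, Bowtie2 2.2.6.0, FastQC 0.11.4 and R 3.2.3, per the submitters' processing notes. Not given in the sources used here were the strand setting, annotation release and filters on reads, so counts of overlapping genes on opposite strands are uncertain (13 of the 40 genes have such a partner). Symbols were matched for 46488 identifiers, 581 kept their identifier, and positions and exon lengths came from GENCODE M21 on GRCm38. No libraries agreed within sampling noise (lowest chi-square per gene 25.4).

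Counts were scaled by TMM and tested with the quasi-likelihood F-test of edgeR 4.0.16 (R 4.3.3, robust), fitted to the 9 libraries together (6 residual degrees of freedom). The filter (filterByExpr, minimum count 10, minimum total 15) kept 18204 genes and 34 of the 40 described. Benjamini-Hochberg adjustment ran over all tested genes, and a gene was called below 0.05. The SE is the absolute log2 fold change over the square root of F. Of the 34, 29 exceeded the minimum of 0.265 CPM in all libraries. The 4 comparisons were distal and proximal each against primary, their mean against primary, and distal against proximal. Since the sources do not say which samples share a mouse, p-values treat libraries as independent and measure the spread between them. The fit used 1 dispersion per gene, while primary libraries spread most, so p-values against primary may be too small. The script recovered known changes in simulated data with no wrong sign. That simulation gave every group the same spread per gene, so it cannot show how the test behaves where primary libraries spread more.

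The genes, pathway lists and marker lists were chosen with earlier results of these data known. Values per library are given for the 32 genes reaching a mean of 1 CPM in a group, fold changes with errors for those with an unadjusted p below 0.05, and ranges for the rest. Beyond this rule, fold changes without a primary library and those of Lrp6, Ryk, Wif1 and Apcdd1 were added after their values were seen. Alternatives were 2 other scalings, DESeq2 1.42.0, limma-voom (limma 3.58.1) without and with sample quality weights, 2 other filters, the compared libraries alone, no robust shrinkage and leaving out each library. The same alternatives for other pathway genes were chosen after seeing the data. Intervals and limits from counts cover counting error only.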

Additional observations from a re-analysis of the deposited data

How the results depend on the processing

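No paired analysis was possible because the labels state that samples were matched in 3 mice without saying which belong together, and library numbers only name the libraries. For both sites against primary, the 3 called Wnt genes became 1 with library totals alone and 1 with limma-voom (Fzd5 in both), 6 with DESeq2 (17.6%, against 14.2% of all genes), 10 with sample quality weights (29.4%, against 21.3%; 3 higher, 8.82% against 8.43%, and 7 lower, 20.6% against 12.8%), and 0 to 13 with a library left out, the 13 without primary 1 (against 34.8% of all genes). For distal against primary, the 0 called became 4 with DESeq2, 8 with quality weights (3 higher, 5 lower) and 0 to 11 with a library left out. The 11 (32.4%) came without primary 1. For proximal against primary, the 0 became 5 with DESeq2, 10 with quality weights (4 higher, 6 lower) and 0 to 11 with a library left out. Here too the 11 (32.4%) came without primary 1. Counts over all genes, given below, also rose most with a library left out, so neither rise is read as particular to the Wnt genes. For distal against proximal the count was 0 throughout. The quality weights were 2.33, 2.08 and 1.78 for distal 1, 2 and 3, 2.92, 1.76 and 1.45 for proximal 1, 2 and 3, and 0.175, 0.0843 and 1.06 for primary 1, 2 and 3. No fold change of a gene with an unadjusted p below 0.05 changed sign under any alternative run.

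Counts over all genes moved in the same settings. The fits without primary 1 tested 19009 genes. For both sites, 676 called genes became 2590 with DESeq2, 97 with limma-voom, 3871 with quality weights, 1101 with the compared libraries alone, and 22 to 6618 with a library left out. For distal against primary, 16 became 10 with library totals, 1444 with DESeq2, 1 with limma-voom, 3126 with quality weights, 0 with the compared libraries alone and 0 to 5203 with a library left out. For proximal against primary, 9 became 15 with median-ratio factors, 1486 with DESeq2, 1 with limma-voom, 3607 with quality weights, 26 without a filter, 23 with a stricter one, 22 without robust shrinkage, 0 with the compared libraries alone and 0 to 5447 with a library left out. For distal against proximal, 0 became 85 with DESeq2 and 0 to 38 with a library left out. The cause of these shifts was not tested. At this depth, Wnt1, Wnt3a, Wnt8a, Wnt8b, Rspo2 and Rspo4 could not be tested.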
